A study of Rattus norvegicus with 6 samples.

Results

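The Wnt ligands, Frizzled receptors, secreted antagonists and 7 listed pathway components were followed in 6 rat PAIII prostate tumors, 3 from digitoxin-treated and 3 from vehicle-treated rats. Members were taken by gene symbol alone: every row whose symbol begins with Wnt, Fzd, Sfrp or Dkk and a number, together with Lrp5, Lrp6, Ctnnb1, Axin1, Axin2, Lef1, Tcf7 and Tcf7l2. The rule found 41 of the 17030 symbols in the deposited table: 18 ligands, 9 receptors (one of them the pseudogene Fzd10-ps1), the 2 coreceptors Lrp5 and Lrp6, 3 Sfrp, 4 Dkk, the 3 cytoplasmic components Ctnnb1, Axin1 and Axin2, and the 2 transcription factors Lef1 and Tcf7l2. Dkk1 and Fzd8 each had 2 rows, and Tcf7 had no row and was not analysed here.

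PAIII is a transplantable line kept by serial passage since it arose spontaneously, hormone resistant, in the prostate of a Lobund-Wistar rat. All 6 animals were Lobund-Wistar rats with an intact immune system, 2 months old at implantation, that received PAIII cells under the skin of the flank. Rats A1, A6 and A12 then had digitoxin, a cardiac glycoside, by daily intraperitoneal injection of 0.03 mg/kg from day 10, rats B5, B9 and B14 had vehicle, and tumors were taken on day 40. The sequenced animals were taken from the low end (digitoxin) and the high end (vehicle) of the serum IL-6 and CINC-1 levels, so the treatment and these serum levels cannot be told apart. By the study's methods each library came from 10 punches, 1 mm across, of tumor areas in 300 micron sections, and levels are in FPKM, that is, fragments counted per length of transcript and relative to the size of the library. Levels are given in the order A1, A6, A12 for digitoxin and B5, B9, B14 for vehicle, and an entry of 0 is as listed in the table.

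Wnt proteins are secreted lipid-modified ligands that bind a Frizzled receptor together with the coreceptor Lrp5 or Lrp6. In the canonical branch this stops a complex built on Axin from marking beta-catenin, the product of Ctnnb1, for destruction, and beta-catenin then works with Lef1 and the T-cell factors on target genes, among them Axin2, which feeds back on the pathway. Sfrp proteins bind Wnts outside the cell, and most Dkk proteins block Lrp5 and Lrp6. Other Wnts, such as Wnt5a, act mostly through branches that do not need beta-catenin. In the prostate the pathway takes part in budding and in the growth of tumors that no longer depend on androgen.

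The libraries were not alike within a group. The summed level of 15 lung alveolar genes was 28340 to 86353 FPKM in A1, A6, B5 and B9 but 79.3 in A12 and 103 in B14, where 5 and 6 of the 15, among them the surfactant genes Sftpa1 and Sftpb, were listed at 0. Alveolar transcripts at such levels in A1, A6, B5 and B9 do not match a flank tumor free of lung tissue. The labels call every library a PAIII tumor without naming a site, and how much of a member's level in these 4 libraries came from lung tissue was not tested. In the other direction, the summed level of 16 fibroblast genes was 3719 in A12 and 5125 in B14 against 587 to 1446 in the other 4. A6 had the lowest sum of 10 epithelial genes, 1576 against 3390 to 6073, and of 12 cell division genes, 87.2 against 439 to 849. It also had the highest alveolar sum (86353). Its sums of 9 airway genes (131862 against 8.21 to 55959) and 6 neutrophil genes (62385 against 1287 to 32651) were the highest too. FPKM are relative to the library, and whether these transcripts lowered the other values of A6 was not tested. Of a list of 10 prostate genes, 4 reached a mean of 1 FPKM and the sum was 102 to 141 FPKM in each tumor. Among those below that mean, Msmb and Pbsn were listed at 0 in all 6 tumors, and Hoxb13 and Folh1 were each under 0.1 FPKM. The sum therefore came from the other genes of the list. The epithelial genes Krt8 and Epcam were at 398 to 2095 and 208 to 525 FPKM. Fewer cells of a type and less RNA per cell cannot be told apart in such pieces. Part of the entries of 0 may be failed estimates, since Col1a2 was listed at 0 in every tumor where Col1a1 was at 12.7 to 1665, so a 0 is a listed value and not absence.

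The promoters of 3 members are shown first, because Axin2 is the classical feedback target of the pathway and because Wnt3a and Wnt9a are neighbours with nearly the same order of levels across the tumors. Each is the RefSeq window from 250 bases before to 50 after the gene's start, in build GRCr8. Capitals mark the T-cell factor core, searched as CTTTGAA or CTTTGAT on both strands.
Axin2, chr10:94398535-94398834, plus strand: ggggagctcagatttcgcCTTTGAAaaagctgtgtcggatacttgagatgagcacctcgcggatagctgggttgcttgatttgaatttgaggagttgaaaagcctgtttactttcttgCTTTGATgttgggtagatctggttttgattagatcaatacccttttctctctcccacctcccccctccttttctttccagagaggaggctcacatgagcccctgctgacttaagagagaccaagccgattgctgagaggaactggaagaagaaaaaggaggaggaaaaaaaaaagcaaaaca
Wnt3a, chr10:44577870-44578169, minus strand: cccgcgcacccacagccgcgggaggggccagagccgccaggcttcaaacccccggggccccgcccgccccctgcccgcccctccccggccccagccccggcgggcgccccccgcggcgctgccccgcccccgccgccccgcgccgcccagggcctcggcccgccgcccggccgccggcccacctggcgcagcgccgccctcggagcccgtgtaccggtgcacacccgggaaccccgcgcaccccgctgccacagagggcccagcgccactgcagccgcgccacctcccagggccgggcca
Wnt9a, chr10:44593441-44593740, plus strand: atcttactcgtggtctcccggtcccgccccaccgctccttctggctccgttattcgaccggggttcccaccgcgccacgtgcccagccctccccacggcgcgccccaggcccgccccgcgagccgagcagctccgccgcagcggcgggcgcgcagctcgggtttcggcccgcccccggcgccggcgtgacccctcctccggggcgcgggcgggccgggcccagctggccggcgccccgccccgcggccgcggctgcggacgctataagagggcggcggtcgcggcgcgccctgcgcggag
The Axin2 window held 2 cores, starting at bases 19 and 119 from its 5′ end, and those of Wnt3a and Wnt9a held none. The windows of Wnt3a and Wnt9a were 85.3% and 80.7% G or C and that of Axin2 45.7%. The median was 52.3% over the 27457 genes with a window and 65.3% over the members with one, and Wnt4 was at 83.3%. A window was found for 27 of the 41 members, of which 3 (Axin2, Dkk1 and Wnt8a) held a core, or 11.1% against 8.64% of all windows. A match is a description of the letters only.

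**Figure D1:**
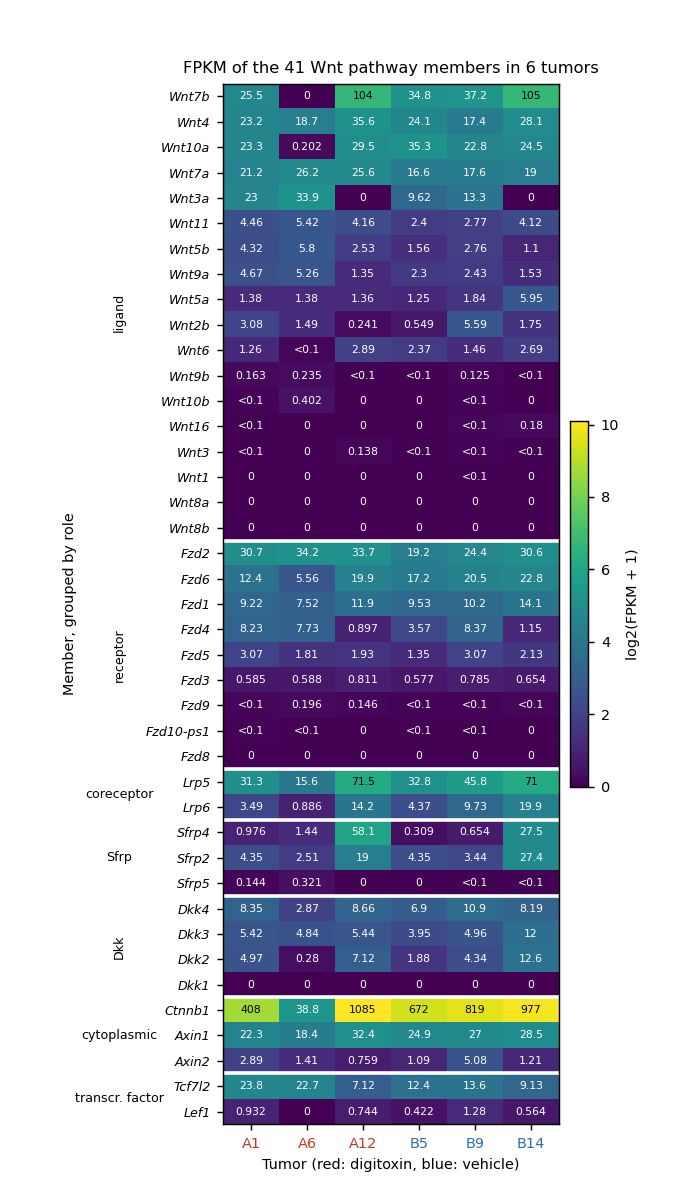
FPKM of the 41 members (rows, grouped by role and ordered by mean) in the 6 tumors (columns, red labels digitoxin, blue labels vehicle), with colour on the log2(FPKM + 1) scale and the FPKM printed in each cell (values above 0 and under 0.1 read <0.1). Wnt7b reads 0 in A6 and over 100 in A12 and B14, Wnt3a reads 0 in A12 and B14, and Ctnnb1 is lowest in A6 at 38.8.

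Transcripts of the ligands were dominated by a few genes. Wnt7b, a canonical ligand of epithelia, on chromosome 7 from 126136631 to 126178957 in the deposited loci (the labels name only a human build, so the rat build is unknown), was the most abundant by mean. It was at 25.5, 0 and 104 FPKM in treated tumors and 34.8, 37.2 and 105 in controls. A12 and B14, 1 tumor of each group, were therefore far above the rest, and the lowest value was also in a digitoxin-treated tumor. Wnt10a, another canonical ligand of epithelia, on chromosome 9 from 81816107 to 81829217, was at 23.3, 0.202 and 29.5 under digitoxin and 35.3, 22.8 and 24.5 under vehicle. A6 alone stood apart for this ligand.

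Wnt4, needed for kidney and female reproductive tract development, was the most even of the abundant ligands beside Wnt7a, at 23.2, 18.7 and 35.6 FPKM with digitoxin and 24.1, 17.4 and 28.1 with vehicle. Wnt7a, a relative of Wnt7b on chromosome 4 from 187505390 to 187551604, was at 21.2, 26.2 and 25.6 in treated tumors and 16.6, 17.6 and 19.0 in controls. All 3 digitoxin-treated tumors were above all 3 controls. Per tumor, the ligand sum was 99.1 in A6, 126 to 136 in A1, B5 and B9, and 208 and 194 in A12 and B14. Wnt7b made up 50.3% and 54.0% of that sum in A12 and B14, 18.8% to 29.6% in A1, B5 and B9, and none of it in A6, where Wnt3a held 34.2% and Wnt7a 26.5%.

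**Figure D2:**
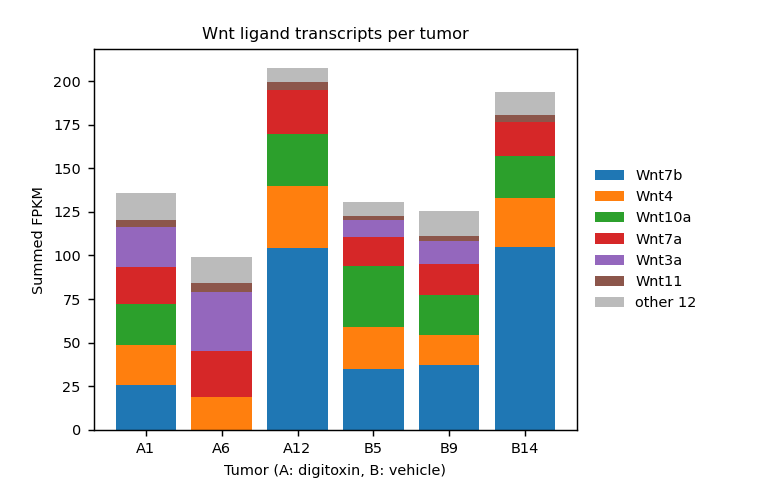
Summed FPKM of the 18 Wnt ligands in each tumor (bars, from 0), divided into the 6 most abundant by mean and the other 12. The bar of A6 has no Wnt7b and almost no Wnt10a (0.202 FPKM), and those of A12 and B14 have no Wnt3a and the most Wnt7b (104 and 105 FPKM).

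Wnt3a, the prototype canonical ligand, lies on chromosome 10 from 45354371 to 45393683, and Wnt9a, from 45414116 to 45441637, is 20.4 kb from it. Wnt3a was at 23.0, 33.9 and 0 FPKM under digitoxin and 9.62, 13.3 and 0 under vehicle. Wnt9a was at 4.67, 5.26 and 1.35 with digitoxin and 2.30, 2.43 and 1.53 with vehicle. Both genes were highest in A6, then A1, B9 and B5, and were lowest in A12 and B14, the tumors in which the lung alveolar genes were also lowest. The part of those lung genes in this order was not tested. Wnt6 and Wnt10a are 6.41 kb apart on chromosome 9, and A6 was lowest for both: Wnt6 was at 1.26, 0.0889 and 2.89 in treated tumors and 2.37, 1.46 and 2.69 in controls. The neighbours Wnt9b and Wnt3 (22.8 kb) and Wnt10b and Wnt1 (10.7 kb) were each under 0.5 FPKM in every tumor. Wnt1 is on X in the deposited loci and on chromosome 7 in GRCr8, so these positions and distances hold only for the deposited table.

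The remaining ligands over the minimum mean of 1 FPKM were low. Wnt5b, mostly known from beta-catenin-independent signaling, on chromosome 4 from 217413754 to 217429687, was at 4.32, 5.80 and 2.53 FPKM under digitoxin and 1.56, 2.76 and 1.10 under vehicle. Only A12 and B9 crossed between the groups. Wnt11, another such ligand, on chromosome 1 from 170000732 to 170016829, was at 4.46, 5.42 and 4.16 with digitoxin and 2.40, 2.77 and 4.12 with vehicle. The groups did not overlap, but A12 and B14 were only just on either side. Wnt5a was within 1.25 to 1.84 in 5 tumors and at 5.95 in B14. Wnt2b, a ligand of mesenchyme, was at 3.08, 1.49 and 0.241 in treated tumors and 0.549, 5.59 and 1.75 in controls, with no order by group. Wnt8a and Wnt8b were listed at 0 in all tumors, and Wnt1, Wnt3, Wnt9b, Wnt10b and Wnt16 were at most 0.402 FPKM.

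Of the receptors, Fzd2 was the most abundant and Fzd6 came next. Fzd2, on chromosome 10 from 90343132 to 90345043, was at 30.7, 34.2 and 33.7 FPKM under digitoxin and 19.2, 24.4 and 30.6 under vehicle. The groups did not overlap, although A1 and B14 differed by less than 1 FPKM. Fzd6, which is linked to planar cell polarity, on chromosome 7 from 78317822 to 78349530, was at 12.4, 5.56 and 19.9 with digitoxin and 17.2, 20.5 and 22.8 with vehicle, so A6 and A1 were lowest. Fzd1 varied least after Fzd2 among the receptors tested, at 9.22, 7.52 and 11.9 in treated tumors and 9.53, 10.2 and 14.1 in controls. Fzd4, a receptor of endothelium that also binds norrin, was at 8.23, 7.73 and 0.897 under digitoxin and 3.57, 8.37 and 1.15 under vehicle. A12 and B14 were lowest for Fzd4, as they were for the summed endothelial genes (221 and 259 against 531 to 2138 FPKM in the other 4), and the part of those cells was not tested. Of the 16 endothelial genes 12 were lowest in these 2 tumors, Flt1 was highest in them (60.0 and 69.4 against 1.41 to 32.7), and Cdh5, Eng and Robo4 did not set them apart. Fzd5 was at 1.35 to 3.07 with no order by group, Fzd3 at 0.577 to 0.811, Fzd9 at 0.0628 to 0.196 and Fzd10-ps1 at no more than 0.0711, and Fzd8 was listed at 0 throughout.

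Both coreceptors were highest in A12 and B14 and lowest in A6. Lrp5, on chromosome 1 from 225689352 to 225793030, was at 31.3, 15.6 and 71.5 FPKM with digitoxin and 32.8, 45.8 and 71.0 with vehicle. Lrp6 was at 3.49, 0.886 and 14.2 in treated tumors and 4.37, 9.73 and 19.9 in controls, a wider range. Lrp5 was above Lrp6 in every tumor on this per-length scale.

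Among the secreted antagonists, A12 and B14 were highest for Sfrp2, Sfrp4, Dkk2 and Dkk3. Sfrp4, which the study names, lies on chromosome 17 from 56095165 to 56105248 and was at 0.976, 1.44 and 58.1 FPKM under digitoxin and 0.309, 0.654 and 27.5 under vehicle. Sfrp2, a secreted antagonist of stroma, was at 4.35, 2.51 and 19.0 with digitoxin and 4.35, 3.44 and 27.4 with vehicle. A12 and B14 were above the other 4 for both genes, and in the same 2 tumors the fibroblast genes Lum and Thy1 were at 217 and 87.2 (A12) and 401 and 90.7 (B14) against at most 8.67 and 4.02 elsewhere. Of the 16 fibroblast genes, 10 were above the other 4 tumors in both and 3 below, namely Dpt (13.7 and 5.48 against 43.1 to 100.9), Pi16 (4.15 and 5.94 against 13.4 to 38.3) and Tcf21 (0 in both against 16.6 to 54.1). The part of fibroblasts in the Sfrp levels was not tested. Sfrp5 was at most 0.321.

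Dkk4, a Wnt-induced antagonist of Lrp5 and Lrp6 on chromosome 16 from 73893384 to 73896976, was the most abundant Dkk, at 8.35, 2.87 and 8.66 FPKM in treated tumors and 6.90, 10.9 and 8.19 in controls. A6 was lowest, and the other 5 were close together. Dkk2 was at 4.97, 0.280 and 7.12 under digitoxin and 1.88, 4.34 and 12.6 under vehicle. Dkk3, a divergent family member, was within 3.95 to 5.44 in 5 tumors and at 11.95 in B14. Dkk1 was listed at 0 on both of its rows in every tumor.

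Among the cytoplasmic components, Ctnnb1 was the most abundant member of all and the one with the widest absolute range. It lies on chromosome 8 from 128815302 to 128824812 and was at 408, 38.8 and 1085 FPKM with digitoxin and 672, 819 and 977 with vehicle. A6 was far below every other tumor, the next lowest being A1. Of its membrane partners, E-cadherin (Cdh1) was at 92.7 in A6 and 90.9 to 135 in the other 5, and plakoglobin (Jup), a close relative of beta-catenin, was at 155 in A6, its highest value, and 110 to 147 in the others. N-cadherin (Cdh2), at a much lower level, was lowest in A6, at 0.348 against 0.416 to 2.91. Per 1000 FPKM of the 10 epithelial genes, Ctnnb1 was at 24.6 in A6 and 117 to 242 elsewhere, and Wnt10a at 0.128 and 4.86 to 7.42. Both were lowest in A6 on that scale. Wnt4 and Wnt7a were highest in A6 on it, at 11.9 against 5.06 to 6.66 and at 16.6 against 3.50 to 6.09. These epithelial genes are not limited to tumor cells, and A6 had the highest lung alveolar sum. The scale therefore does not count tumor cells, and the part of epithelial content in these levels was not tested. Axin1, the scaffold of the destruction complex, was at 22.3, 18.4 and 32.4 in treated tumors and 24.9, 26.99 and 28.5 in controls, within a 1.76-fold range.

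Axin2, on chromosome 10 from 96933421 to 96959746, was at 2.89, 1.41 and 0.759 FPKM under digitoxin and 1.09, 5.08 and 1.21 under vehicle. The groups overlapped, and Axin2 was highest in B9 and lowest in A12, where Ctnnb1 was highest. Tcf7l2, on chromosome 1 from 284095286 to 284118927, was at 23.8, 22.7 and 7.12 with digitoxin and 12.4, 13.6 and 9.13 with vehicle, so A12 and B14 were lowest and A1 and A6 highest. Lef1 was at 0.932, 0 and 0.744 in treated tumors and 0.422, 1.28 and 0.564 in controls, below the minimum mean for testing.

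**Figure D3:**
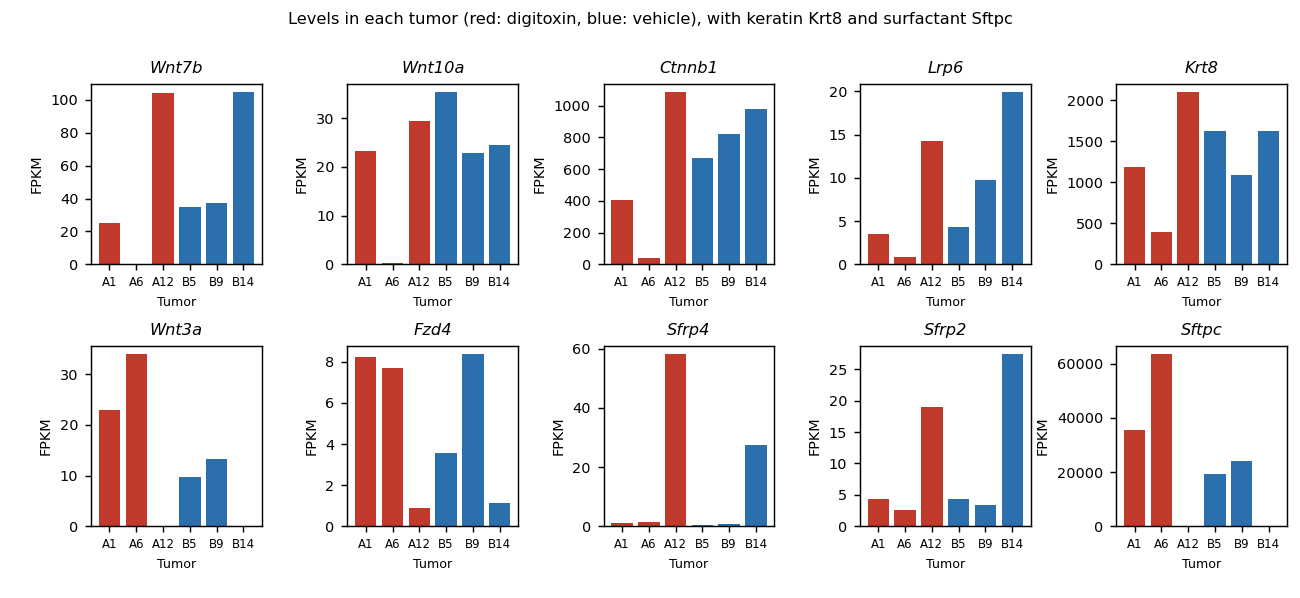
FPKM (bars, linear axes from 0) of 8 members and of the keratin Krt8 and the surfactant gene Sftpc in the 6 tumors, red for digitoxin and blue for vehicle. The upper row is lowest in A6 (Ctnnb1 at 38.8, Wnt7b at 0), and in the lower row A12 and B14 are lowest for Wnt3a and Fzd4 and highest for Sfrp4 (58.1 and 27.5) and Sfrp2.

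Across the 27 members with a mean of at least 1 FPKM, A12 and B14 were both above the other 4 tumors for 12 members (44.4%) against 30.1% of the 10749 rows tested, and both below for 4 members (14.8%; Fzd4, Tcf7l2, Wnt3a and Wnt9a) against 29.3%. A6 was below the other 5 for 12 members (44.4%) against 50.4% of all rows. Low values in A6 were thus no more frequent among the members than in the table as a whole. These counts describe tumors that stand apart and are no comparison of treatments.

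Digitoxin-treated and control tumors were then compared by limma's moderated test on log2(FPKM + 1) over the 10749 rows, two-sided, with Benjamini-Hochberg adjusted p-values. None of the 27 members tested passed an adjusted p under 0.05 (0 members, with 0.0% of all rows called), and the smallest adjusted p among them was 0.926. Without adjustment, 0 members had p under 0.05, against 0.335% of all rows. The log2 fold change was above 0 for 11 members and below 0 for 16, with a median of -0.22 against -0.16 over all rows, or -0.0588 relative to it. Of all rows tested, 64.9% were below 0, and of the members 59.3%. Scaling the libraries by the median of ratios moved the median of all rows by 0.18, and the members then divided into 12 above and 15 below. Because an exact permutation test of 3 against 3 cannot go below p = 0.10, none was run for single members.

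The groups did not overlap for 3 members, Wnt7a, Fzd2 and Wnt11, all higher with digitoxin, against 0.902% of all rows in that direction, and for 0 members lower with digitoxin, against 3.26% of all rows. Wnt7a measured 24.3 ± 2.74 FPKM (SD, n = 3) with digitoxin and 17.8 ± 1.17 (SD, n = 3) in controls. Its log2 fold change was 0.43 (standard error 0.22, 95% interval -0.11 to 0.97). Fzd2 measured 32.9 ± 1.85 against 24.7 ± 5.73 FPKM (SD, n = 3 in each), a log2 fold change of 0.42 (standard error 0.25, 95% interval -0.18 to 1.02). Wnt11 measured 4.68 ± 0.658 against 3.10 ± 0.906 FPKM (SD, n = 3 in each), a log2 fold change of 0.49 (standard error 0.32, 95% interval -0.29 to 1.27). All 3 intervals include 0. Per 1000 FPKM of the epithelial genes the groups overlapped for Wnt7a, with A12 at 4.21 and B9 at 5.204. Leaving out 1 tumor at a time, the value for Wnt7a ran from 0.37 to 0.52, that of Fzd2 from 0.26 (without B5) to 0.58 (without B14) and that of Wnt11 from 0.36 to 0.66 (without B14).

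Wnt5b had the smallest p of the members. It measured 4.21 ± 1.64 FPKM with digitoxin and 1.80 ± 0.858 in controls (SD, n = 3 in each), a log2 fold change of 0.89 (standard error 0.41, 95% interval -0.11 to 1.88). With the replicate number as a block its unadjusted p was 0.0342 and its adjusted p 0.638 by limma, the 1 member under the unadjusted threshold in that fit, where 4.15% of all rows were. Fzd6 measured 12.6 ± 7.19 against 20.2 ± 2.82 FPKM, a log2 fold change of -0.78 (standard error 0.46, 95% interval -1.89 to 0.33), which was -0.33 without A6.

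**Figure D4:**
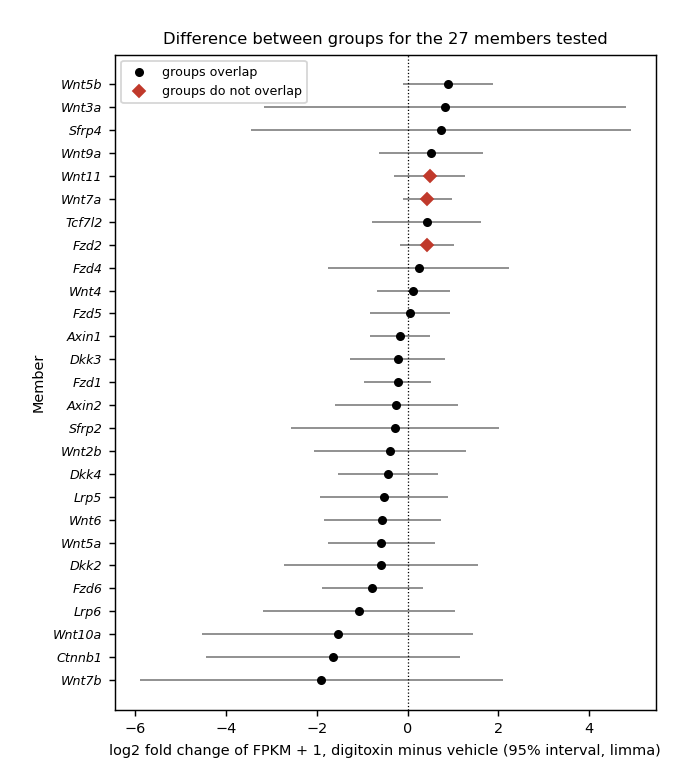
Log2 fold change of FPKM + 1 between digitoxin-treated and vehicle-treated tumors (points) with its 95% interval from limma (lines) for the 27 members tested, and red diamonds for the 3 members whose groups do not overlap. Every interval includes 0, and the widest, of Sfrp4, Wnt3a and Wnt7b, belong to members that were near or at 0 in some tumors.

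The intervals of Ctnnb1, Wnt7b and Lrp5 were wider. For Ctnnb1 the means were 511 ± 531 FPKM with digitoxin and 822 ± 153 in controls (SD, n = 3 in each), and the log2 fold change was -1.64 (standard error 1.15, 95% interval -4.44 to 1.15). Without A6 it was -0.29, and without A12 it was -2.67. Wnt7b measured 43.3 ± 54.5 against 58.9 ± 39.7 FPKM, a log2 fold change of -1.90 (standard error 1.65, 95% interval -5.91 to 2.11), which was 0.00936 without A6 and -3.35 without A12. By the ratio of group means it was -0.44 and with a pseudocount of 0.1 it was -3.00, and for Ctnnb1 the ratio of means gave -0.69. Lrp5 measured 39.5 ± 28.8 against 49.9 ± 19.4 FPKM, a log2 fold change of -0.52 (standard error 0.58, 95% interval -1.93 to 0.89), which was -0.00235 without A6 and -1.07 without A12. In these 3 members the direction or most of the size of the difference depended on A6.

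Sfrp4 measured 20.2 ± 32.8 FPKM with digitoxin and 9.48 ± 15.6 in controls (SD, n = 3 in each), so each SD exceeded its mean. On the log2 scale the difference was 0.74 (standard error 1.73, 95% interval -3.45 to 4.92). It became -0.85 without A12, -0.0604 without B5 and 2.16 without B14. In each of the 3 pairs of same-numbered tumors (A1 with B5, A6 with B9, A12 with B14), 5 of the 27 members were higher with digitoxin, namely Sfrp4, Wnt5b, Wnt7a, Wnt11 and Fzd2, against 9.68% of all rows. In each pair 5 were lower, namely Fzd1, Fzd6, Lrp6, Sfrp2 and Wnt7b, against 22.4% of all rows. For Sfrp2 A1 and B5 were nearly equal (4.345 and 4.348 FPKM), and A1 was above B9 (3.44). Whether the shared numbers mark real pairs is unknown. For Sfrp4, with the replicate number as a block its standard error was 0.343, its unadjusted p 0.0720 and its adjusted p 0.638 by limma. Leaving out the pair A12 and B14, its difference was 0.58. The unadjusted p with the block was 0.0846 for Fzd6 and 0.0787 for Lrp6, with an adjusted p of 0.638 by limma for both. Dkk4 measured 6.63 ± 3.26 against 8.66 ± 2.03 FPKM, a log2 fold change of -0.43 (standard error 0.45, 95% interval -1.53 to 0.66), which was -0.00248 without A6. Tcf7l2 measured 17.9 ± 9.32 against 11.7 ± 2.31 FPKM. Its log2 fold change was 0.42 (standard error 0.50, 95% interval -0.78 to 1.62), running from 0.14 without A1 to 0.95 without A12. Axin2 measured 1.69 ± 1.09 against 2.46 ± 2.27 FPKM, with a difference of -0.25 (standard error 0.56, 95% interval -1.61 to 1.10) that became 0.25 without B9 and 0.0128 without A12. By limma the adjusted p was 0.948 for Sfrp4, 0.946 for Axin2 and 0.926 for Wnt7b, Wnt7a, Wnt11, Wnt5b, Fzd2, Fzd6, Lrp5, Dkk4, Ctnnb1 and Tcf7l2.

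**Figure D5:**
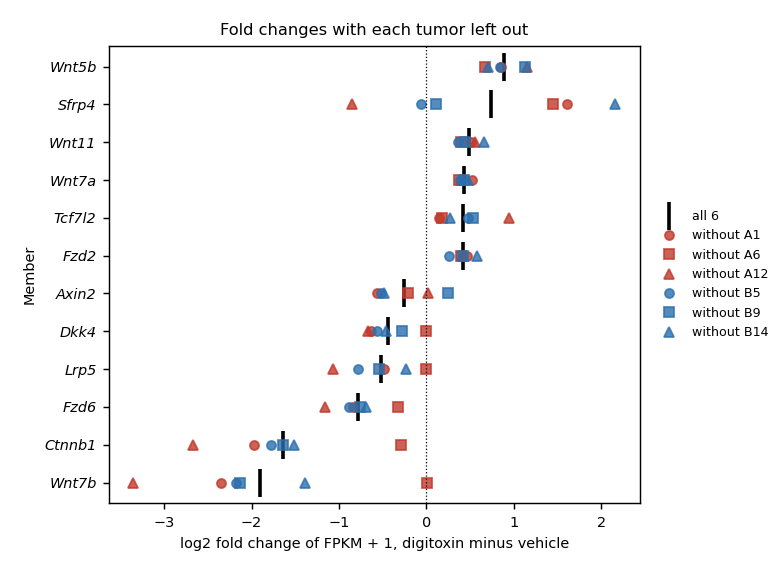
Log2 fold change of FPKM + 1 between the groups for 12 members with all 6 tumors (black bars) and with each tumor left out (red for a digitoxin-treated tumor, blue for a control). Wnt7b and Ctnnb1 move to 0.00936 and -0.29 without A6 (red squares), Sfrp4 runs from -0.85 to 2.16, and Wnt7a stays between 0.37 and 0.52.

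The 2 tumors with little lung transcript were 1 of each group, so the comparison was repeated without A12 and B14. Unadjusted p-values were then under 0.05 for 3 members, Ctnnb1 (log2 fold change -2.54), Tcf7l2 (0.79) and Wnt3a (1.23), or 3 of 27 against 1183 of the 10749 rows, and the adjusted p of each was 0.392 by limma. Wnt3a was higher in both remaining digitoxin-treated tumors (23.0 and 33.9 FPKM) than in both controls (9.62 and 13.3), and so were the summed lung alveolar genes (52583 and 86353 against 28340 and 36818), whose part was not tested. With A12 alone left out, 7 members (Ctnnb1, Fzd6, Lrp6, Tcf7l2, Wnt5b, Wnt7b and Wnt9a) had an unadjusted p under 0.05, against 19.7% of all rows, and an adjusted p of 0.252 each by limma.

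Other genes of the pathway were read from 4 lists of 90 genes, of which 81 had a row and 66 were tested by limma. Of these, 0 passed the adjusted threshold and 0 had an unadjusted p under 0.05, while 16 had a log2 fold change above 0 and 50 below, where 64.9% of all rows were below. Their median was -0.24. The lists of secretion and surface genes (13 tested), cytoplasmic and nuclear components (25), reported target genes (16) and planar polarity and noncanonical genes (12) had medians of -0.21, -0.18, -0.33 and -0.26. Id2, a reported target and helix-loop-helix inhibitor, was the 1 gene of the 66 whose groups did not overlap, lower with digitoxin, as were 3.26% of all rows. It was at 97.8, 64.3 and 87.9 FPKM under digitoxin and 111, 100.1 and 118 under vehicle.

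The 2 most abundant genes of each list overlapped between the groups. Gpc3, a glypican that binds Wnts, was at 97.9 FPKM in A1, 84.9 in A6, 77.1 in B5 and 137 in B9 but listed at 0 in A12 and at 0.690 in B14. The Wnt receptor kinase Ryk was at 17.0 in A6 and 41.9 to 65.9 in the other 5. Among targets, Cd44 was at 69.8 in A6 and 160 to 380 in the others, and cyclin D1 (Ccnd1) at 48.9 and 134 to 326, both highest in A12 and B14. The small GTPases Rhoa and Rac1 were at 307 and 268 in A6 and at 804 to 970 and 370 to 542 in the other tumors. A6 was below the other 5 for 42 of the 66 genes, against the 50.4% of all rows given above.

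A12 and B14 were both below the other 4 tumors for 16 of the 66 genes and both above for 29, against 29.3% and 30.1% of all rows. Nkd1, Sp5 and Wif1, among the 16, were picked after their values were seen. Nkd1, a feedback inhibitor, was at 24.5, 27.1 and 1.10 FPKM with digitoxin and 8.29, 24.3 and 1.94 with vehicle. The target Sp5 was at 5.81, 7.62 and 0.0838 in A1, A6 and A12 and at 2.16, 3.38 and 0 in B5, B9 and B14. Wif1, a secreted inhibitor that binds Wnts, was at 42.0, 58.8 and 0.0662 and at 18.0, 37.6 and 0.269 in the same order. These 3 genes were lowest in A12 and B14, as Wnt3a was. So were the low transcripts of Notum, Frzb and Sostdc1, each under 1 FPKM in every tumor. For Nkd2, Rnf43 and Axin2 the 2 tumors did not stand apart, and for Kremen1, Sfrp2, Sfrp4, Dkk2 and Dkk3 they were highest. Porcupine (Porcn), which adds the lipid to Wnts, was at 15.2 in A6 and 26.6 to 47.2 elsewhere, and Wls, which carries them to the surface, at 31.0 in A6 and 41.7 to 60.9 elsewhere.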

How the data were processed

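The authors made TruSeq messenger RNA libraries from 1 tumor per rat, read them as single ends (Illumina GAIIx), used TopHat 2 with Bowtie 2 for alignment, and deposited FPKM values from Cufflinks 2. Scaling between tumors is not given in the sources used here. The labels name hg19, a human build, while the table holds rat genes, so the rat build of the deposited loci is unknown. Reads were not analysed, so depth is unknown and no counting interval or detection limit can be given. Libraries summed to 651322 to 1025231 FPKM. Cuffdiff, used by the authors, needs the reads and was not repeated.

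Columns were matched to rats by name, and for a symbol on several rows the one of highest mean was used. The comparison used limma 3.58.1 under R 4.3.3 (lmFit, eBayes with a trend) over the 10749 of 17557 rows whose mean reached 1 FPKM. Its scale was log2(FPKM + 1), on which differences of low transcripts come out too small. The fit was tested on simulated data with independent genes and large changes. That test does not bear on small differences or on patterns that many genes share across the tumors. Tables and figures were made with Python 3.11.15, pandas 2.3.3, numpy 2.4.6 and matplotlib 3.10.9. The 3 tumors of a group were separate rats. Promoters are RefSeq windows of GRCr8. Members and gene lists were chosen with earlier results of these data known. Every member is named. Means, fold changes with intervals and adjusted p-values are given for the most abundant member of each role, the members whose groups do not overlap, the 5 smallest p, Axin2 and Sfrp4, and Lef1, below the minimum, has its values only.

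The replicate numbers in the labels are shared by the groups. Deviations from the group means of same-numbered tumors correlated across genes at r = 0.426, 0.606 and 0.869, all over 0.1. However, A1 with B9 (0.644) and A6 with B5 (0.612) correlated higher than A1 with B5 and A6 with B9. No source names a shared day or batch. The main fit was unpaired, and the numbers served only as a block in an alternative fit and for the counts by pair. Alternatives were a pseudocount of 0.1, no minimum, median-of-ratios scaling, no trend, a block for the replicate number, leaving out each tumor, leaving out A12 with B14, ratios of group means, and summed rows of a symbol.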

Additional observations from a re-analysis of the deposited data

How the results depend on the processing

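Under all 12 other fits, 0 of the members and 0 of the other pathway genes passed the adjusted threshold of limma. The number of members at an unadjusted p under 0.05, 0 as reported, was 1 with no minimum (1.05% of all rows) and with median-of-ratios scaling (0.355%), Wnt7a in both, 1 with the replicate block (Wnt5b; 4.15%), 3 without A12 and B14, and 0 to 7 with each tumor left out. It was 7 without A12 (19.7%). Median-of-ratios scaling made 4 members not overlap (4.56% of all rows), Wnt5b being the addition, and 3 members as reported became 16 without A12 and B14 (57.2%) and 3 to 15 with each tumor left out (15 without A12, with 51.0% of all rows, and 5 without B5, with 13.3%), with fewer tumors to separate. The median log2 fold change of the members ran from -0.50 (without B5) to -0.00235 (without A6) with tumors left out, and was 0.0 with no minimum. Of the 27 members tested, 12 changed sign in at least 1 fit, without a call. With tumors left out Wnt7b ran from -3.35 to 0.00936, Sfrp4 from -0.85 to 2.16 (-0.0604 without B5) and Axin2 from -0.56 to 0.25 (0.0128 without A12). Axin1 became 0.0190 with median-of-ratios scaling and Dkk3 0.17 without A12 and B14. Axin1, Dkk2, Fzd4, Sfrp2 and Wnt3a also reversed without A6, Wnt2b and Wnt4 without A12 or B9, Fzd4 and Fzd5 without A1, Fzd5 without B5, and Dkk2, Dkk3, Fzd4, Sfrp2 and Wnt3a without B14. Wnt7a, Wnt11, Wnt5b, Fzd2, Fzd6, Lrp5, Dkk4, Ctnnb1 and Tcf7l2 had 1 sign under all 13 alternatives run for each. With single tumors left out, Lrp5 ran from -1.07 to -0.00235, Dkk4 from -0.66 to -0.00248, Ctnnb1 from -2.67 to -0.29, Fzd6 from -1.17 to -0.33, Tcf7l2 from 0.14 to 0.95, Wnt5b from 0.67 to 1.14, Wnt11 from 0.36 to 0.66, Fzd2 from 0.26 to 0.58 and Wnt7a from 0.37 to 0.52. Under the settings other than leaving out a single tumor, moves of over 1.5 times among the 12 members with intervals were Sfrp4 with a pseudocount of 0.1 (1.17), Lrp5, Dkk4 and Axin2 with median-of-ratios scaling (-0.33, -0.27 and -0.12), Lrp5 and Axin2 by the ratio of group means (-0.34 and -0.54), and Lrp5 and Dkk4 without A12 and B14 (-0.78 and -0.69), beside those of Wnt7b, Ctnnb1 and Tcf7l2 given with their results. The block changed no other call. Summing the rows of a symbol could not change the summed level of the members, since only Dkk1 and Fzd8 had more than 1 row and both were listed at 0. The unknown depth limits what members under 1 FPKM can show. The causes of these shifts were not tested.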
